A study of Mus musculus with 12 samples.

Results

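The 6 libraries described here compare hepatocytes that lack the transcription factor gene Cebpa with hepatocytes that carry it, and they are 6 of the 12 libraries in the series. Members were taken by their labels. The WT group (3 libraries, WT1 to WT3) was primary mouse hepatocytes of the genotype Cebpafl/fl, with both Cebpa alleles flanked by loxP sites and intact. The KO group (3 libraries, KO1 to KO3) was primary hepatocytes of the genotype Cebpa{delta}Alb, in which Cre recombinase driven by the albumin promoter removes the floxed alleles. Floxed alleles are therefore shared by both groups, and no Cre is named for WT. Albumin-driven Cre acts in hepatocytes from before birth, so the time since the loss is not controlled in these libraries. The labels give no sex, age, diet or treatment for these 6 libraries, and the study's methods state that male mice were used. The other 6 libraries, hepatocytes given an adenovirus for green fluorescent protein (GFP) or for mouse Cebpa (OE), are used only beside genes that changed in KO. The labels number the libraries of a group as biological replicates without saying whether they came from separate mice, so p values measure the spread between these libraries.

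CEBPA is a basic leucine zipper protein that binds DNA as a dimer with itself or with other members of the C/EBP family. In adult liver it is abundant in hepatocytes and is known for driving genes of glucose, lipid, bilirubin and drug metabolism and of plasma protein secretion. Hepatocytes also divide this work by position in the lobule. Cells near the central vein carry most drug oxidation and glutamine synthesis under Wnt signals, and cells near the portal vein carry most gluconeogenesis and urea synthesis.

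Each library held 20966339 to 23261800 counts in WT and 20368564 to 23304230 counts in KO. Levels are given as CPM (the count of a gene as a share of its library, scaled between libraries), and 3 counts in 1 library equal 0.123 to 0.154 CPM. Of 55450 gene identifiers 11846 passed the filter on low counts and were tested. The targeted gene, Cebpa (chromosome 7, 35119293 to 35121928, mm10), read 309, 229 and 290.3 CPM in WT1, WT2 and WT3 and 0.963, 0.257 and 0.164 CPM in KO1, KO2 and KO3. Each KO library was thus below 1 CPM, and no library went against its label. The 15 hepatocyte markers summed to 100541 to 111423 TPM (a share of all transcripts, scaled for gene length) in WT and to 109635 to 132094 TPM in KO. The 22 macrophage markers summed to 5.32 to 31.3 TPM in WT and 17.6 to 53.1 TPM in KO, the 24 endothelial markers to 17 to 33.4 and 24.6 to 48.6 TPM, and the 22 stellate cell markers to 7.65 to 13.1 and 13.3 to 16.5 TPM. In these 3 lists KO1 and KO2 were the highest libraries and KO3 lay within or near the range of WT. KO3 also stood apart from KO1 and KO2 in acute phase genes, as described below for single libraries, and the counts of calls are given with and without it. As these are bulk samples, fewer cells of a type and less RNA per cell cannot be told apart.

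KO and WT were compared to find which hepatocyte genes change when Cebpa is deleted. 203 genes were called at an adjusted p under 0.05, which is 1.71% of the 11846 tested. 82 rose (0.692%) and 121 fell (1.02%). The rises had a median of 4.07-fold and the falls a median of 3.75-fold, and 23 rises and 29 falls were of 10-fold or more. These medians and counts are the same with the 7 genes that read 0 throughout 1 group set to their lower bound. The falls reached more abundant genes: 35 of the 121 averaged at least 100 CPM in WT, against 9 of the 82 rises at that level in KO. In TPM, the genes that fell summed to 33980 in WT and 9922 in KO, and those that rose to 872 and 2814 (means of 3 libraries). None of the 203 had overlapping groups, whereas the groups did not overlap in 2373 of all genes tested (20%), with KO above WT in 1144 (9.66%) and below in 1229 (10.4%). At an unadjusted p under 0.05 there were 1644 genes (13.9%), 803 up (6.78%) and 841 down (7.1%). As a description of the called genes, whose choice fixed the direction, the median log2 ratio to the WT mean was 1.42, 1.59 and 1.43 in KO1, KO2 and KO3 for the rises and −1.39, −1.60 and −1.40 for the falls.

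**Figure D1:**
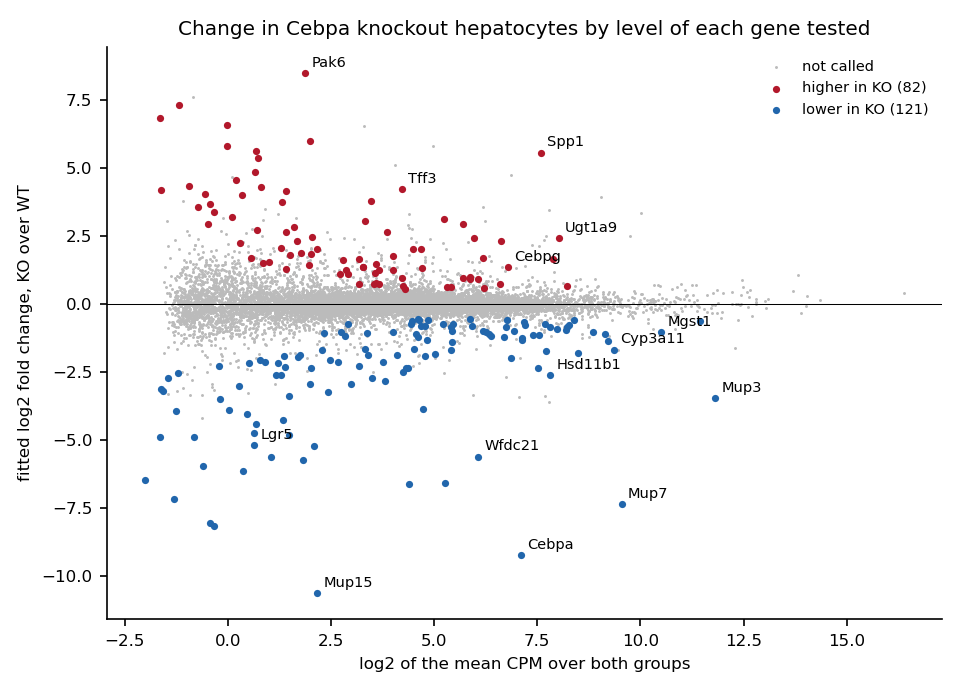
Fitted log2 fold change of KO over WT (vertical) against the log2 of the mean CPM over both groups (horizontal) for each of the 11846 genes tested, where each point is a gene. The 82 genes that rose lie mostly at low levels, apart from Spp1, Ugt1a9 and a few others, and the 121 that fell include abundant genes such as Mup3 and Mup7. The fitted values of 7 genes with a group at 0 counts, Mup15 among them, depend on a small added count and are not bounds.

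The count of calls rested on all libraries. Leaving out KO3 raised it to 396 (3.28% of 12078 tested, 207 rises or 1.71%, and 189 falls or 1.56%), of which 179 were among the 203. Leaving out any other library lowered it, to 118 without KO1, 91 without KO2, 42 without WT1, 52 without WT2 and 60 without WT3, and a fit of 5 libraries has less power by construction. DESeq2 called 623 genes, 202 of the 203 among them. 36 of the 203 were called whichever library was left out. 24 genes were called in each of the 15 alternative fits, namely the rises of Spp1, Tff3, Ugt1a9, Cyp2d12, Mfge8, Ly6e, Ifi27l2b and Cystm1 and the falls of Cebpa, Wfdc21, Hsd11b1, Gramd1c, Adtrp, C6, Cyp1a2, Cyp2c67, Slc46a3, Stom, Lect2, Cd1d1, Pecr, C4a, Plbd1 and Gm4956. Low-level genes were filtered out of some alternatives. Among them Sulf2, Susd4, Pak6, Lrtm2, Cldn14 and Nxpe2 were called in all 14 fits with a value, and Capn8, Rragd and Ddr1 in all 12. No called gene changed direction in any alternative, which adds little, because groups that do not overlap leave a sign little room to change. All 203 were then sorted by what their product is known to do, in 12 groups. The counts for gene lists below stand beside rises in 0.692% and falls in 1.02% of all genes tested.

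**Figure D2:**
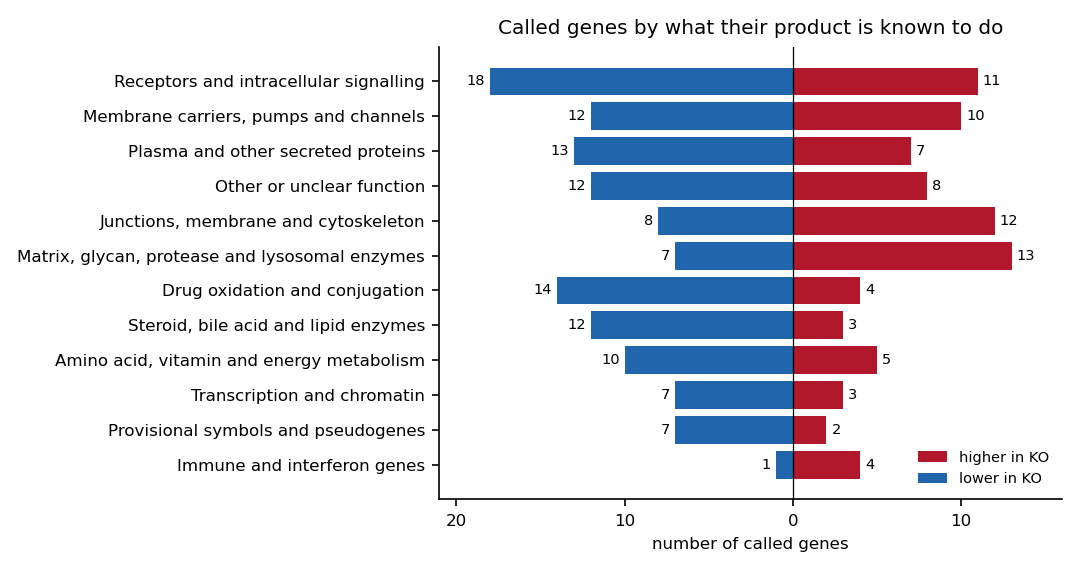
Number of called genes (horizontal) that were higher (right) or lower (left) in KO, in each of 12 groups by known function (vertical). Drug oxidation and conjugation holds 14 falls and 4 rises, and matrix, glycan, protease and lysosomal enzymes hold 7 falls and 13 rises.

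The sequence just before the start site was searched for the C/EBP-type motif TTGCNNAA on both strands (TTNNGCAA on the other), where N is any base, in the 250 bases before the RefSeq start (GRCm38.p6, the build of mm10). A window was found for 148 of the 203 genes. The motif was present in 13 of 93 falls (14%), 4 of 55 rises (7.27%) and 674 of 8928 genes tested (7.55%). The 30-base stretches around it in 7 metabolic and secretory genes that fell and in 2 that rose are shown because they put the letters beside the changes given in the later paragraphs, with the motif in capitals, read 5′ to 3′ on the strand of the gene.
Cyp2c67 (chr19:39649109-39649138, minus strand, fell): taactagttgaTTGCACAAagatgcccaaa
Mgst1 (chr6:138140433-138140462, plus strand, fell): caggggtgggaTTTGGCAAgctccgaaggc
Pon1 (chr6:5194001-5194030, minus strand, fell): tttcctcctgcTTGCTTAAtcccctccaga
Cyp2a4 (chr7:26307111-26307140, plus strand, fell): aggtgaaatagTTGCATAAtcaagaccaaa
Gstt1 (chr10:75797752-75797781, minus strand, fell): aaatgaaagtgTTGCATAAtgggctgtggc
Hgd (chr16:37580093-37580122, plus strand, fell): aaaaaaaaaggTTGTGCAAgaatttcgatg
Serpina1d (chr12:103773764-103773793, minus strand, fell): ttctaactgctTTGCTTAAgactccattga
Tinag (chr9:77045863-77045892, minus strand, rose): cttgtattatcTTGTGCAAacactgaaagt
Rarb (chr14:16575484-16575513, minus strand, rose): actcgcatataTTAGGCAAttcaatctttc
A match in these windows is a description of the letters and not a bound site, and a C/EBP dimer can bind other sequences and positions that were not searched.

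Among transcription and chromatin genes 3 rose and 7 fell. Cebpa fell most in this group, by 602-fold (log2 −9.23 ± 0.51, SE, adjusted p = 0.000837). Cebpg, which encodes a family partner that dimerises with CEBPA and lies 62.7 kb away on chromosome 7, read 59.3, 55.6 and 70.6 CPM in WT against 169, 180.3 and 125 CPM in KO, 2.56-fold higher (adjusted p = 0.0146). All 3 KO libraries were above every WT library, KO3 the least. Sox9, a factor that marks duct and progenitor cells, rose 4.04-fold from 6.69, 9.58 and 10.5 to 25.7, 54.2 and 28.7 CPM (adjusted p = 0.0335), and Rarb, a retinoic acid receptor, 2.85-fold from 1.01, 0.816 and 0.984 to 2.45, 3.24 and 2.34 CPM (adjusted p = 0.0365). The falls were in low-level genes. Tcf7, a partner of beta-catenin in Wnt signalling, fell 4.48-fold from 2.47, 2.06 and 2.44 to 0.433, 0.668 and 0.452 CPM (adjusted p = 0.0185). Olig1, a bHLH factor known from the nervous system, fell from 1.97, 4.17 and 1.67 to 0.193, 0 and 0.246 CPM (adjusted p = 0.0453), and Smyd1, a histone methyltransferase known from muscle, from 3.16, 2.92 and 3.04 to 0.818, 0.411 and 0.821 CPM (adjusted p = 0.0221). Sox5, a Sox family factor, fell 2.09-fold and Pole4, a subunit of DNA polymerase epsilon, 2.06-fold. The other C/EBP genes did not pass: Cebpb read 79.4, 131 and 144 CPM in WT against 209.9, 248 and 101 CPM in KO (adjusted p = 0.456) and Cebpd 4.76, 8.64 and 11.6 and 27.5, 41 and 4.23 CPM (adjusted p = 0.41). In both genes KO1 and KO2 were above every WT library, while KO3 was within the range of WT in Cebpb and below it in Cebpd. Hes1, a Notch target, and Atf3, a stress factor, had log2 fold changes of 0.64 ± 0.36 and −0.15 ± 0.30 (SE; adjusted p = 0.473 and 0.853), and none of the 17 liver transcription factors on a list was called. Leaving out WT1 or WT2 ended the calls of Cebpg, Sox9, Rarb, Tcf7, Olig1, Smyd1, Sox5 and Pole4, leaving out WT3 those of Sox9, Rarb, Tcf7, Olig1, Smyd1, Sox5 and Pole4, leaving out KO1 those of Rarb, Tcf7, Olig1, Smyd1 and Sox5, leaving out KO2 those of Rarb, Olig1, Sox5 and Pole4, with adjusted p values up to 0.155.

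Of plasma and other secreted proteins 7 rose and 13 fell. Wfdc21, a small protein with a protease inhibitor domain, was the gene with the lowest p in the table and read 113, 160.1 and 123 CPM in WT against 2.94, 1.9 and 3.16 CPM in KO, a 49.1-fold fall (adjusted p = 0.000397). C6, a component of the membrane attack complex, fell 5.09-fold from 288, 319 and 313 to 59.7, 46.5 and 74.4 CPM (adjusted p = 0.00218), and C4a, a copy of complement C4, from 65.3, 47.7 and 36.1 to 1.68, 5.09 and 3.45 CPM (adjusted p = 0.00786). These were the only calls among 42 complement genes, whose median log2 fold change was 0.33, and C4a shares reads with its near copy C4b, so its level is uncertain. Lect2, a hepatokine that attracts neutrophils, fell 3.75-fold from 49.2, 32 and 47.9 to 12.1, 11.1 and 11.2 CPM (adjusted p = 0.00506). Pon1, an esterase carried on high-density lipoprotein, fell 2.04-fold from 686, 581 and 601 to 302, 273 and 342 CPM (adjusted p = 0.0159). A2ml1, an inhibitor of proteases, fell 5.05-fold from 6.04, 8.51 and 5.78 to 1.97, 1.34 and 0.739 CPM (adjusted p = 0.028). Serpina1d, an alpha-1 antitrypsin copy, fell 1.56-fold from 3399.6, 3485 and 3271 to 2242, 2141 and 2122 CPM (adjusted p = 0.0381), and its level shares the doubt of all near copies. Leaving out WT1, WT2, WT3 or KO2 ended the calls of Pon1, A2ml1 and Serpina1d, leaving out KO1 those of Pon1 and Serpina1d, leaving out KO3 that of Serpina1d, with adjusted p values up to 0.159.

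The secreted proteins that rose included matrix proteins and a mucosal peptide. Spp1, the matrix phosphoprotein osteopontin, read 4.53, 11.5 and 8.0 CPM in WT against 327, 448 and 362 CPM in KO, 47.3-fold higher (adjusted p = 0.00134). The groups were far apart, and KO3 lay between KO1 and KO2. Tff3, a trefoil peptide of mucosa, read 1.6, 1.46 and 2.61 CPM in WT against 28.7, 38.6 and 38.5 CPM in KO, 18.6-fold higher (adjusted p = 0.000837). Mfge8, a bridge for the uptake of dying cells, rose 8.28-fold from 1.88, 2.28 and 2.27 to 23.7, 16.1 and 13.6 CPM (adjusted p = 0.00253). Smoc2, a calcium-binding matrix protein, rose 6.32-fold from 0.641, 0.988 and 0.513 to 3.37, 5.6 and 4.68 CPM (adjusted p = 0.0137). Lpl, the lipase of circulating triglyceride that adult hepatocytes barely make, read 11.8, 17.2 and 7.06 CPM in WT against 101, 62.8 and 112 CPM in KO, 7.62-fold higher (adjusted p = 0.0144), with KO3 the highest library. Spink1, a trypsin inhibitor, held 2 counts over the 3 WT libraries and read 2.07, 1.8 and 1.93 CPM in KO, a ratio of 66.3 (95% exact interval 18 to 553 for counting error only, adjusted p = 0.0114). Of 12 cholangiocyte and progenitor markers tested 4 rose (Spp1, Tff3, Sox9 and Pkhd1) and none fell, beside rises in 0.692% of all genes tested. The 12 had a median log2 fold change of 0.57 against 0.0074 over all genes tested. The 31 markers of this list summed to 137 to 171 TPM in WT and 648 to 844 TPM in KO, most of it Spp1, and 5 of the 31 were at 0 in all 6 libraries. The duct keratin genes Krt7 and Krt19 were not among the genes tested, and the part of duct cells in these rises was not tested. Leaving out WT1 ended the calls of Smoc2, Lpl and Spink1, leaving out WT3 that of Smoc2, leaving out WT2 that of Spink1, with adjusted p values up to 0.096.

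**Figure D3:**
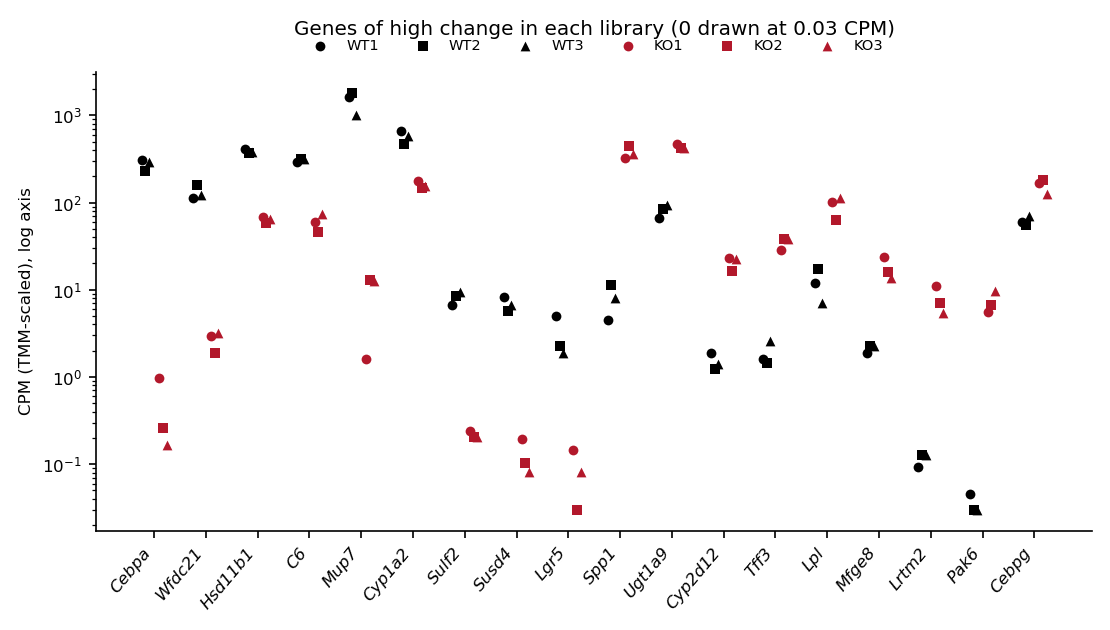
Level of 18 called genes (horizontal) in each library in CPM on a log axis (vertical), where black symbols are WT, red symbols are KO and the shape gives the library number. Values of 0 are drawn at 0.03 CPM. Each KO library is apart from each WT library in every gene shown, and KO3 lies close to KO1 and KO2 in most of them.

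The major urinary proteins, lipocalins that carry pheromones in mouse urine, changed unevenly. Of 18 tested 4 fell and none rose. Mup3, one of the more abundant members, read 11742, 13190.3 and 11060.4 TPM in WT and 656, 541 and 2044 TPM in KO (10.9-fold lower, adjusted p = 0.028), and Mup7 3087, 3364 and 1974 and 2.51, 31 and 22.2 TPM (165-fold lower, adjusted p = 0.011). Mup15 read 15.3, 7.95 and 3.59 CPM in WT and 0 in each KO library, at least 193-fold lower by 3 counts over the KO group (adjusted p = 0.0342). Mup19 read 132, 54.4 and 39.7 CPM in WT, 0 in KO1 and KO2 and 2.13 CPM in KO3 (adjusted p = 0.0353). Mup20, a pheromone in its own right and the most abundant of the family here, read 20209, 16794 and 14398 TPM in WT and 22432, 35952 and 47354 TPM in KO (adjusted p = 0.14), so that all KO libraries were above WT without a call. The summed level of 22 Mup genes was therefore 43969, 46729 and 38127 TPM in WT and 25234, 41319 and 59904 TPM in KO, so that the groups overlapped in the sum. This sum includes Mup22, which is not among the 18 genes above. Mup22 read 4003, 5620 and 4813 TPM in WT and 1066, 2099 and 4232 TPM in KO (adjusted p = 0.41). Mup genes are near copies of each other, and the division of reads among them is uncertain. Of 40 genes known to be higher in male liver 5 fell (Hsd11b1, Susd4, C6, Mup7 and Mup3) and none rose, and of 24 known to be higher in female liver 3 rose and 3 fell. Over all genes tested 0.692% rose and 1.02% fell. Without KO3 the male-biased list held 13 falls, beside falls in 1.56% of all genes tested without KO3. The libraries differed: its median log2 ratio was −0.39, −0.61 and 0.24 in KO1, KO2 and KO3. It summed to 51474 to 60466 TPM in WT and 41158, 55510 and 76952 TPM in KO. At an unadjusted p under 0.05, 8 of the 40 rose and 15 fell, beside 6.78% and 7.1% of all genes tested. Leaving out WT1 ended the calls of Mup3, Mup7, Mup15 and Mup19, leaving out WT2, KO1 or KO2 those of Mup3, Mup15 and Mup19, leaving out WT3 those of Mup3 and Mup19, with adjusted p values up to 0.135.

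In drug oxidation and conjugation 4 genes rose and 14 fell. Of 38 cytochrome P450 genes of families 1 to 3 tested 8 fell and 1 rose, with a median log2 fold change of −0.21. Over all genes tested 1.02% fell and 0.692% rose. Cyp1a2, which oxidises caffeine and aromatic amines, read 654, 463 and 573 CPM in WT against 177, 148 and 155 CPM in KO, 3.52-fold lower (adjusted p = 0.00391). Cyp3a11, the main steroid and drug hydroxylase of its family in mouse liver, fell 3.2-fold from 1293, 870.2 and 816 to 356, 223 and 353 CPM (adjusted p = 0.028). Cyp2a4, a testosterone hydroxylase, ranged widely in WT (11.3, 76.3 and 37.1 CPM) and read 0.241, 0.411 and 0.575 CPM in KO (adjusted p = 0.0177). In the Cyp2c cluster on chromosome 19, whose enzymes act on drugs and fatty acids, 5 genes fell. Cyp2c67 fell 3.3-fold from 261, 337 and 369 to 79.5, 106 and 108 CPM (adjusted p = 0.00838) and Cyp2c40 10.6-fold from 7.33, 3.78 and 4.32 to 0.818, 0.257 and 0.37 CPM (adjusted p = 0.0203). Cyp2c68, Cyp2c38 and Cyp2c37 fell 2.36-, 9.37- and 1.94-fold. The exception was Cyp2d12, which read 1.88, 1.25 and 1.41 CPM in WT against 23.2, 16.2 and 22.6 CPM in KO, 13.7-fold higher (adjusted p = 0.000837). Members of the Cyp2a, Cyp2c and Cyp2d clusters are alike in sequence, so that reads may be shared among them. Leaving out WT3 or KO2 ended the calls of Cyp3a11, Cyp2a4, Cyp2c40, Cyp2c68, Cyp2c38 and Cyp2c37, leaving out WT1 or WT2 those of Cyp3a11, Cyp2c40, Cyp2c68, Cyp2c38 and Cyp2c37, leaving out KO1 those of Cyp3a11, Cyp2a4 and Cyp2c37, with adjusted p values up to 0.141.

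Conjugating enzymes moved in both directions. Ugt1a9, a glucuronosyltransferase, read 67.2, 84.1 and 93.8 CPM in WT against 466, 417 and 425 CPM in KO, 5.34-fold higher (adjusted p = 0.000949), while Ugt1a6b, which overlaps it on chromosome 1 and shares its last exons, fell 1.58-fold from 170.3, 181 and 179 to 125, 109 and 103 CPM (adjusted p = 0.0343). The genes of the Ugt1a locus differ in their first exon only, so that the division of reads between them rests on that exon. Gsta2, a glutathione transferase, rose 3.25-fold from 37.7, 36.7 and 28.5 to 132, 115 and 87.9 CPM (adjusted p = 0.00908). In contrast, Mgst1, the abundant microsomal glutathione transferase, fell 2.04-fold from 1943, 2114 and 1809.5 to 919, 962 and 999 CPM (adjusted p = 0.0109). At the theta class locus on chromosome 10 Gstt3 fell 7.1-fold from 33.2, 18.3 and 22.7 to 5.15, 3.24 and 2.09 CPM (adjusted p = 0.0162) and Gstt1 2.13-fold from 133, 104 and 93.8 to 54.6, 51 and 49.4 CPM (adjusted p = 0.0185). Their neighbour Ddt, a tautomerase related to the cytokine MIF, fell 1.7-fold (adjusted p = 0.0327). Of 36 glutathione genes 1 rose and 3 fell, beside 0.692% and 1.02% of all genes tested. Aldh3a2, which oxidises fatty aldehydes, fell 3.94-fold from 177, 206 and 171 to 55.4, 29.5 and 55.8 CPM (adjusted p = 0.0162), and Aldh1b1, a mitochondrial aldehyde dehydrogenase, rose 1.91-fold from 44.8, 35.1 and 39.9 to 86.6, 76.6 and 65.6 CPM (adjusted p = 0.028). Leaving out WT1 ended the calls of Ugt1a6b, Gsta2, Mgst1, Gstt3, Ddt, Aldh3a2 and Aldh1b1, leaving out WT2 those of Ugt1a6b, Gsta2, Mgst1, Gstt1, Ddt, Aldh3a2 and Aldh1b1, leaving out WT3 those of Ugt1a6b, Gstt3, Ddt, Aldh3a2 and Aldh1b1, leaving out KO2 those of Ugt1a6b, Gstt3, Gstt1, Ddt and Aldh1b1, leaving out KO1 those of Gstt1, Ddt and Aldh1b1, with adjusted p values up to 0.152.

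Steroid, bile acid and lipid enzymes comprised 12 falls and 3 rises. Hsd11b1, which regenerates active glucocorticoid inside the cell, read 414, 366 and 379.6 CPM in WT against 67.6, 57.6 and 64.3 CPM in KO, 6.12-fold lower (log2 −2.61 ± 0.11, SE, adjusted p = 0.000397). Both groups were tight and lay far apart. Gramd1c, a sterol transfer protein, fell 4.87-fold from 16.9, 13.2 and 14.7 to 3.08, 3.08 and 3.04 CPM (adjusted p = 0.000932). Akr1d1, the reductase that gives bile acids and steroids their 5-beta form, fell 2.5-fold from 251, 175 and 175 to 103, 65.5 and 72.1 CPM (adjusted p = 0.0382), and Srd5a1, the 5-alpha reductase, 2.05-fold from 85.3, 121 and 102 to 49.1, 57.1 and 44.1 CPM (adjusted p = 0.0288). Hsd17b10, Akr1c20 and Tspo, a mitochondrial steroid dehydrogenase, a ketosteroid reductase and a cholesterol-binding protein of the outer mitochondrial membrane, fell 2.01-, 1.97- and 1.67-fold. Thus 5 of 29 genes of steroid metabolism fell and none rose, beside falls in 1.02% of all genes tested. In phospholipid synthesis Chpt1, which makes phosphatidylcholine from choline, fell 2.23-fold from 232, 235 and 235 to 112, 80.2 and 123 CPM (adjusted p = 0.0235), and Pemt, which makes it by methylation, 1.82-fold from 147, 131 and 138 to 86.8, 75.7 and 66.9 CPM (adjusted p = 0.0231). Pecr, a peroxisomal enoyl-CoA reductase, fell 2.32-fold (adjusted p = 0.00557). Leaving out WT1 or WT2 ended the calls of Akr1d1, Srd5a1, Hsd17b10, Akr1c20, Tspo, Chpt1 and Pemt, leaving out WT3 those of Akr1d1, Srd5a1, Akr1c20, Tspo, Chpt1 and Pemt, leaving out KO2 those of Akr1d1, Srd5a1, Hsd17b10, Akr1c20 and Pemt, leaving out KO1 those of Srd5a1, Akr1c20 and Chpt1, leaving out KO3 that of Akr1d1, with adjusted p values up to 0.137.

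The 3 lipid enzymes that rose were at or under 1.37 CPM in each WT library. Smpdl3b, a phosphodiesterase of the cell surface, read 0.458, 0.215 and 0.171 CPM in WT against 6.55, 3.86 and 4.6 CPM in KO, 17.6-fold higher (adjusted p = 0.00557). Fads3, a member of the fatty acid desaturase family, rose 5.0-fold from 1.37, 0.774 and 1.07 to 5.63, 3.34 and 7.1 CPM (adjusted p = 0.028). Sdr16c5, a retinol dehydrogenase, read 0, 0.215 and 0 CPM in WT against 2.17, 3.29 and 4.23 CPM in KO (adjusted p = 0.028). No gene was called among 51 of fatty acid oxidation and ketogenesis, and of 35 of lipogenesis 1 rose and none fell, and their median log2 fold changes were −0.027 and −0.21. Leaving out WT1, WT3 or KO1 ended the calls of Fads3 and Sdr16c5, leaving out WT2 that of Fads3, leaving out KO2 that of Sdr16c5, with adjusted p values up to 0.123.

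Among enzymes of amino acid, vitamin and energy metabolism 5 rose and 10 fell, mostly by about 2-fold. Hgd, of tyrosine breakdown, read 395, 401 and 356 CPM in WT against 236, 182 and 216 CPM in KO, 1.81-fold lower (adjusted p = 0.028). Gulo, which completes the synthesis of vitamin C, fell 2.18-fold from 301, 216 and 253 to 131, 102 and 121 CPM (adjusted p = 0.0231), and Rgn, the gluconolactonase of the same pathway, 2.13-fold from 862, 773 and 679 to 437, 326 and 321 CPM (adjusted p = 0.028). Both steps of this pathway were lower in every KO library. Cth, which makes cysteine from cystathionine, fell 1.88-fold from 372, 316 and 301 to 207, 147 and 172 CPM (adjusted p = 0.0415), and Kyat3, a kynurenine aminotransferase, 2.24-fold from 110.0, 145 and 91.9 to 51.6, 58.8 and 44.3 CPM (adjusted p = 0.0343). Mpc1, a subunit of the mitochondrial pyruvate carrier, fell 1.5-fold from 139, 127 and 127 to 85.4, 92.4 and 83.3 CPM (adjusted p = 0.0335). In the other direction, Ldhd, which oxidises D-lactate, rose 1.57-fold from 225, 238 and 233 to 384, 367 and 346 CPM (adjusted p = 0.0276) and Bco1, which cleaves beta-carotene, 3.63-fold from 1.28, 1.2 and 1.93 to 4.0, 5.6 and 6.45 CPM (adjusted p = 0.0277). Mthfd2, the mitochondrial folate enzyme that adult liver makes little of, rose 2.73-fold from 1.79, 2.02 and 2.48 to 5.49, 7.3 and 4.48 CPM (adjusted p = 0.0378). Of 71 genes of amino acid breakdown 3 fell, none of 10 of the urea cycle was called, and neither was any of 74 of oxidative phosphorylation or 28 of the tricarboxylic acid cycle. Over all genes tested 1.71% were called. Leaving out WT1, WT2, WT3 or KO2 ended the calls of Hgd, Gulo, Rgn, Cth, Kyat3, Mpc1, Ldhd, Bco1 and Mthfd2, leaving out KO1 those of Gulo, Kyat3, Mpc1, Ldhd and Mthfd2, leaving out KO3 that of Cth, with adjusted p values up to 0.176.

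Membrane carriers, pumps and channels comprised 10 rises and 12 falls. The carriers of the blood-facing membrane that take up bile acids fell. Slco1b2 read 855, 918 and 773 CPM in WT against 357, 266 and 366 CPM in KO, 2.57-fold lower (adjusted p = 0.0114), and Slc10a1, the sodium-dependent bile acid carrier, 395, 396 and 379.7 and 228, 206 and 248 CPM, 1.71-fold lower (adjusted p = 0.0221). On the canalicular side Abcg8, a subunit of the sterol exporter, fell 2.29-fold from 31.2, 26.9 and 43.9 to 14.4, 12.5 and 17.5 CPM (adjusted p = 0.0438). With Akr1d1 these made 4 falls and no rise among 32 bile acid genes (median log2 fold change −0.29). Slc46a3, a lysosomal carrier, fell 3.2-fold from 62.2, 71.2 and 62 to 22.1, 16.2 and 22.7 CPM (adjusted p = 0.00428). Slc13a2, the citrate and dicarboxylate carrier, read 3.66, 2.71 and 1.33 CPM in WT and held 2 counts over the 3 KO libraries, a ratio of 82 (95% exact interval 22.4 to 683, adjusted p = 0.0116). Slc22a15, of the organic ion carrier family, fell 4.22-fold from 11.5, 8.55 and 6.85 to 2.07, 1.9 and 2.38 CPM (adjusted p = 0.011), and Slc23a1, a vitamin C carrier, 2.53-fold from 43.5, 46.7 and 32.5 to 17.3, 11.9 and 19.2 CPM (adjusted p = 0.0327). In all, 7 of 71 carriers of ions, metals and organic ions fell and none rose. These counts of bile acid genes and of carriers stand beside falls in 1.02% of all genes tested. Leaving out WT2 ended the calls of Slco1b2, Slc10a1, Abcg8, Slc13a2, Slc22a15 and Slc23a1, leaving out WT1 those of Slco1b2, Slc10a1, Abcg8, Slc13a2 and Slc23a1, leaving out WT3, KO1 or KO2 those of Slc10a1, Abcg8 and Slc23a1, with adjusted p values up to 0.144.

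Among 36 channel genes tested 3 rose and none fell, beside rises in 0.692% of all genes tested. The median log2 fold change of the list was 0.17, and 14 of the 36 were below 0. Clic5, an intracellular chloride channel protein tied to the cytoskeleton, read 6.5, 13.9 and 9.71 CPM in WT against 34.8, 42.7 and 45.9 CPM in KO, 4.09-fold higher (adjusted p = 0.0185). Kcnj8, the pore of an ATP-sensitive potassium channel, rose from 0.0458, 0.0859 and 0.171 to 2.12, 1.85 and 5.21 CPM (adjusted p = 0.0201), and Trpm4, a calcium-activated cation channel, from 0.183, 0.129 and 0.0856 to 1.83, 1.75 and 0.739 CPM (adjusted p = 0.0327). The latter 2 were close to the floor of 3 counts in each WT library. Slc6a8, the creatine carrier, rose 2.54-fold from 5.95, 4.86 and 5.56 to 12.6, 16.6 and 12.6 CPM (adjusted p = 0.0128), and Slc35f2, a carrier of the cell surface, from 0.183, 0 and 0.0856 to 1.83, 2.26 and 2.55 CPM (adjusted p = 0.0201). Abca3, a lipid pump of intracellular vesicles, rose 1.9-fold from 46.2, 44 and 48.6 to 97.5, 85.9 and 80.6 CPM (adjusted p = 0.011), and Slc44a4, of the choline carrier family, from 0.0916, 0.129 and 0.0856 to 0.626, 1.95 and 1.56 CPM (adjusted p = 0.0327). Leaving out WT3 ended the calls of Clic5, Kcnj8, Trpm4, Slc6a8, Slc35f2, Abca3 and Slc44a4, leaving out WT1 those of Kcnj8, Trpm4, Slc6a8, Slc35f2, Abca3 and Slc44a4, leaving out WT2 those of Kcnj8, Trpm4, Slc6a8, Abca3 and Slc44a4, leaving out KO2 those of Clic5, Trpm4, Slc35f2 and Slc44a4, leaving out KO1 those of Trpm4 and Slc35f2, with adjusted p values up to 0.157.

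Receptors and intracellular signalling was the group with the most calls, 11 rises and 18 falls, and held many genes that were nearly silent in one of the groups. Pak6, a kinase of the p21-activated family, held 1 count over the 3 WT libraries and read 5.49, 6.68 and 9.69 CPM in KO, a ratio of 509 (95% exact interval 90.9 to 20144, adjusted p = 0.00145). Inpp5j, an inositol phosphatase, was at 0 in each WT library and at 0.818, 0.925 and 0.903 CPM in KO, at least 20.1-fold higher by 3 counts over the WT group (adjusted p = 0.0224). Ddr1, a receptor tyrosine kinase for collagen, read 0.0458, 0.043 and 0.0856 CPM in WT against 1.83, 3.5 and 4.06 CPM in KO, 49.1-fold higher (adjusted p = 0.00505). Gipc2, an adaptor protein, held 1 count over WT and read 1.4, 2.06 and 2.38 CPM in KO (adjusted p = 0.00786). Rragd, a GTPase that links amino acids to the mTORC1 kinase at the lysosome, rose 13.6-fold from 0.229, 0.473 and 0.300 to 5.34, 5.19 and 3.37 CPM (adjusted p = 0.00476). Lpar1, a receptor for lysophosphatidic acid, rose 12-fold from 0.137, 0.0859 and 0.0428 to 1.25, 1.29 and 0.821 CPM (adjusted p = 0.0206). Each of these 6 genes was below 1 CPM in every WT library. Leaving out WT1 ended the calls of Inpp5j, Gipc2 and Lpar1, leaving out WT2, WT3, KO1 or KO2 those of Inpp5j and Lpar1, with adjusted p values up to 0.107.

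The falls of the same group ran the other way. Efna5, a membrane-bound ephrin, read 1.51, 1.63 and 1.28 CPM in WT and 0 in each KO library, at least 31.8-fold lower (adjusted p = 0.0141). Lgr5, the receptor for R-spondins that marks Wnt-responsive pericentral hepatocytes, read 4.95, 2.28 and 1.88 CPM in WT against 0.144, 0 and 0.0821 CPM in KO, 36.7-fold lower (adjusted p = 0.0221). Both were below 1 CPM in every KO library. Npr2, the receptor for C-type natriuretic peptide, fell 5.62-fold from 41, 21.4 and 34 to 7.46, 3.91 and 5.75 CPM (adjusted p = 0.0146), and Tlr5, the receptor for flagellin, 4.53-fold from 4.17, 3.82 and 3.51 to 0.818, 0.617 and 1.07 CPM (adjusted p = 0.0116). Adtrp, a membrane hydrolase of hydroxy fatty acid esters, fell 2.62-fold from 57.8, 68.6 and 62 to 24.5, 22.6 and 24.8 CPM (adjusted p = 0.00157), and Mrap, a partner of the corticotropin receptor, 3.11-fold from 36.4, 32.7 and 34.5 to 13.3, 7.09 and 12.8 CPM (adjusted p = 0.0221). Leaving out WT1 or WT3 ended the calls of Efna5, Lgr5, Npr2, Tlr5 and Mrap, leaving out WT2 those of Efna5, Lgr5, Tlr5 and Mrap, leaving out KO1 or KO2 that of Lgr5, with adjusted p values up to 0.109.

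Of genes of junctions, membrane and cytoskeleton 12 rose and 8 fell. Among the falls, Susd4, a membrane protein that restrains complement, read 8.24, 5.76 and 6.68 CPM in WT against 0.193, 0.103 and 0.0821 CPM in KO, 53.1-fold lower (adjusted p = 0.000837). Cldn14, a tight junction claudin, fell 49.2-fold from 4.03, 3.39 and 4.75 to 0.0963, 0 and 0.123 CPM (adjusted p = 0.00428). Stom, a scaffold of lipid rafts, fell 5.13-fold from 31, 36 and 33.7 to 5.78, 4.94 and 8.83 CPM (adjusted p = 0.00476), S100a10, the annexin A2 partner, 5.09-fold from 37, 39.9 and 26.6 to 4.14, 4.68 and 11.3 CPM (adjusted p = 0.0377), and Fat1, a giant cadherin, 4.4-fold from 21.2, 24.5 and 21 to 7.03, 4.22 and 3.9 CPM (adjusted p = 0.00908). The rises included actin-binding genes. Tagln2, Pls1 and Myo15b, a transgelin, a plastin of microvilli and a myosin, rose 4.11-, 6.68- and 9.12-fold, and Tagln2 read 1.65, 1.76 and 1.8 CPM in WT against 8.33, 5.14 and 8.13 CPM in KO (adjusted p = 0.0111). Epb41l1, which ties membrane proteins to actin, rose from 0.0916, 0.172 and 0.171 to 0.915, 3.14 and 3.16 CPM (adjusted p = 0.0299), with KO1 the lowest of the KO libraries. Pkhd1, fibrocystin of the primary cilium of bile ducts, rose 2.13-fold from 4.81, 5.8 and 3.72 to 10.1, 9.36 and 11.1 CPM (adjusted p = 0.0382). Leaving out WT1 or WT2 ended the calls of S100a10, Fat1, Tagln2, Pls1, Myo15b, Epb41l1 and Pkhd1, leaving out WT3 those of S100a10, Tagln2, Pls1, Myo15b, Epb41l1 and Pkhd1, leaving out KO1 those of S100a10, Pls1 and Pkhd1, leaving out KO2 those of S100a10, Epb41l1 and Pkhd1, leaving out KO3 that of Pkhd1, with adjusted p values up to 0.178.

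Genes of matrix, glycans, proteases and lysosomes held 13 rises and 7 falls. Col4a1, a chain of basement membrane collagen, read 14.8, 26.6 and 17.8 CPM in WT against 115, 148 and 51.6 CPM in KO, 5.31-fold higher (adjusted p = 0.0387), with KO3 the lowest of the KO libraries. Its partner chain Col4a2 read 16.8, 26.3 and 17.3 and 54.1, 89.9 and 44.6 CPM and just missed the threshold (adjusted p = 0.0503). Reln, the glycoprotein reelin, rose 3.15-fold from 3.75, 3.61 and 5.73 to 15.6, 15.3 and 10.4 CPM (adjusted p = 0.027). Reln is also on the stellate cell marker list, so the sum of that list given above includes it. The sum was 13.3 TPM in KO3 and 13.1 TPM in WT3, and the part of stellate cells in the level of Reln was not tested. Emilin1, an elastic fibre protein, rose 2.93-fold from 0.962, 0.945 and 1.11 to 2.94, 3.8 and 2.18 CPM (adjusted p = 0.047). With Spp1 these made 4 rises and no fall among 43 collagen and matrix genes, beside rises in 0.692% of all genes tested. The median log2 fold change of the 43 was 0.55. Tinag, of tubular basement membranes, was at 0 in each WT library and at 0.722, 0.668 and 0.534 CPM in KO (at least 14.6-fold, adjusted p = 0.034). Galnt10, a Golgi enzyme that starts O-linked glycans, rose 2.36-fold from 4.4, 4.34 and 4.28 to 9.24, 9.97 and 11.5 CPM (adjusted p = 0.00965), and Galns, a lysosomal sulfatase, 2.37-fold from 6.09, 7.61 and 8.86 to 21.6, 16.7 and 15.4 CPM (adjusted p = 0.028). Tmprss2, a serine protease of the cell surface, rose 3.07-fold from 3.25, 4.08 and 2.91 to 12.2, 11.5 and 7.88 CPM (adjusted p = 0.0207). Leaving out WT1 or WT2 ended the calls of Col4a1, Reln, Emilin1, Tinag, Galnt10, Galns and Tmprss2, leaving out WT3 those of Col4a1, Emilin1, Tinag, Galnt10, Galns and Tmprss2, leaving out KO1 or KO2 those of Col4a1, Reln, Emilin1, Tinag, Galns and Tmprss2, with adjusted p values up to 0.204.

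Of the 7 falls in that group several left almost no transcript, and they included lysosomal and Golgi genes too. Sulf2, which trims sulfate from heparan chains outside the cell, read 6.69, 8.42 and 9.54 CPM in WT against 0.241, 0.206 and 0.205 CPM in KO, 37-fold lower (adjusted p = 0.000518). Capn8, a calpain known from stomach, fell 26.6-fold from 3.43, 3.35 and 2.27 to 0.144, 0.0514 and 0.123 CPM (adjusted p = 0.00368). Acpp, prostatic acid phosphatase, read 0.962, 0.774 and 0.685 CPM in WT and 0 in each KO library, at least 17.4-fold lower (adjusted p = 0.028). Reck, an inhibitor of matrix metalloproteases, read 0.87, 0.774 and 0.727 CPM in WT and held 3 counts over KO, a ratio of 17 (95% exact interval 5.51 to 84.9, adjusted p = 0.0115). Plbd1, a lysosomal phospholipase, fell 3.67-fold from 19.8, 15.3 and 14.7 to 5.44, 3.6 and 4.52 CPM (adjusted p = 0.00786), and Golim4, a Golgi membrane protein, 1.76-fold from 80.8, 78.1 and 74.2 to 47.8, 43.7 and 40.8 CPM (adjusted p = 0.0125). In each of the first 4 all KO libraries stood below 0.3 CPM. Leaving out WT1, WT2 or WT3 ended the calls of Acpp, Reck and Golim4, leaving out KO1 or KO2 that of Acpp, with adjusted p values up to 0.143.

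Few immune genes were called, 4 rises and 1 fall. Ly6e, an interferon-induced surface protein, read 120.1, 108 and 116 CPM in WT against 334, 396 and 339 CPM in KO, 3.11-fold higher (adjusted p = 0.00157). Ifi27l2b, of an interferon-inducible family, rose 6.33-fold from 4.08, 4.77 and 2.91 to 26.8, 22 and 25.7 CPM (adjusted p = 0.00157), and Gvin1, a giant interferon-inducible GTPase, from 31, 39.5 and 28.4 to 117, 271 and 99.8 CPM (adjusted p = 0.0395). KO3 was within the range of the other KO libraries in Ly6e and Ifi27l2b and just below them in Gvin1. Gm4070, a near copy of Gvin1 on chromosome 7 that is grouped with provisional symbols, rose from 5.54, 9.37 and 8.17 to 38.3, 119 and 45.5 CPM (adjusted p = 0.028), and reads may be shared between these copies. Pglyrp2, a secreted amidase that cleaves bacterial cell wall, rose 1.66-fold from 65.8, 80.5 and 71 to 116, 119 and 126 CPM (adjusted p = 0.027). Cd1d1, which presents lipid antigens, fell 1.98-fold from 160.0, 159 and 167 to 87.3, 81.6 and 76.4 CPM (adjusted p = 0.00557). Of 66 interferon response genes 2 were called, both up, beside rises in 0.692% of all genes tested. 60 of the 66 had a log2 fold change above 0, with a median of 0.51. The median per library was 0.36, 0.65 and 0.36 in KO1, KO2 and KO3. Macrophage and endothelial markers were higher in KO1 and KO2 but not in KO3, as given above. Leaving out WT1, WT2 or WT3 ended the calls of Gvin1, Gm4070 and Pglyrp2, leaving out KO1 those of Gvin1 and Pglyrp2, leaving out KO2 that of Pglyrp2, with adjusted p values up to 0.195.

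Of the genes left, 8 rises and 12 falls had other or unclear functions and 2 rises and 7 falls were provisional symbols or pseudogenes. Lrtm2, a leucine-rich repeat membrane protein, read 0.0916, 0.129 and 0.128 CPM in WT against 11.1, 7.04 and 5.38 CPM in KO, 64.1-fold higher (adjusted p = 0.00157). Cystm1, a small cysteine-rich membrane protein, rose 3.4-fold from 7.33, 6.88 and 7.79 to 21.3, 26.5 and 27.1 CPM (adjusted p = 0.00163), and Prnp, the prion protein, 1.93-fold from 30.6, 43.1 and 32.1 to 64.5, 63.8 and 76.2 CPM (adjusted p = 0.0343). All KO libraries were above all WT libraries in these genes, as in every gene called up. Nxpe2, of a neurexophilin-like family, fell 28.5-fold from 7.23, 4.6 and 4.36 to 0.144, 0.103 and 0.287 CPM (adjusted p = 0.00338), and Snhg11, a noncoding host RNA of small nucleolar RNAs, 6.1-fold from 5.59, 4.0 and 2.95 to 0.77, 0.566 and 0.698 CPM (adjusted p = 0.0132). Gm4956, a provisional symbol named after its values were seen because each alternative called it, read 22.3, 19.1 and 17.5 CPM in WT against 2.84, 3.8 and 2.42 CPM in KO, 6.52-fold lower (adjusted p = 0.00157). Leaving out WT1 or KO2 ended the calls of Prnp and Snhg11, leaving out WT3 or KO1 that of Prnp, leaving out WT2 that of Snhg11, with adjusted p values up to 0.156.

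Calls were also read by lobular zone. Of 47 pericentral genes tested 12 fell (25.5% against 1.02% of all genes) and none rose, and 41 of the 47 had a log2 fold change below 0. The median log2 fold change of the list was −1.05, and it was −0.82, −1.23 and −1.01 in KO1, KO2 and KO3. The 12 were Cyp1a2, Lect2, Slco1b2, Pon1, Aldh3a2, Lgr5, Gulo, Rgn, Cyp3a11, Cyp2c38, Cyp2c37 and Lhpp, a phosphatase of histidine and lysine. Without KO3 12 were called down as well, of which 11 are among these and Notum takes the place of Lhpp. Without KO1 11 were called and without KO2 5, and without WT1, WT2 or WT3 2, 2 and 3, each in the fall direction. Most of the 12 are enzymes and carriers whose values stand in the paragraphs above. Lhpp read 17.6, 9.24 and 15.3 CPM in WT against 3.47, 0.72 and 1.31 CPM in KO, 7.64-fold lower (adjusted p = 0.0453). Oat, ornithine aminotransferase of the cells around the central vein, read 311, 159 and 265 CPM in WT against 45.6, 10.1 and 12.1 CPM in KO and just missed the threshold (log2 fold change −3.44 ± 0.63, SE, adjusted p = 0.0514). The groups did not overlap, and KO1 was above KO2 and KO3. The Wnt targets Axin2 (5.45, 3.09 and 3.34 and 1.78, 0.874 and 1.81 CPM, adjusted p = 0.132) and Notum (32.4, 22.9 and 20 and 7.32, 6.58 and 14.4 CPM, adjusted p = 0.108) were below every WT library in each KO library but were not called. Of 42 periportal genes 3 rose (Spp1, Aldh1b1 and Sox9) and none fell, beside rises in 0.692% of all genes tested. Spp1 and Sox9 were already counted among the cholangiocyte and progenitor markers that rose, so the lists are not separate observations. The periportal list had a median log2 fold change of 0.17 and 17 of 42 below 0. Leaving out WT1, WT2, WT3, KO2 or KO3 ended the call of Lhpp, with adjusted p values up to 0.186.

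**Figure D4:**
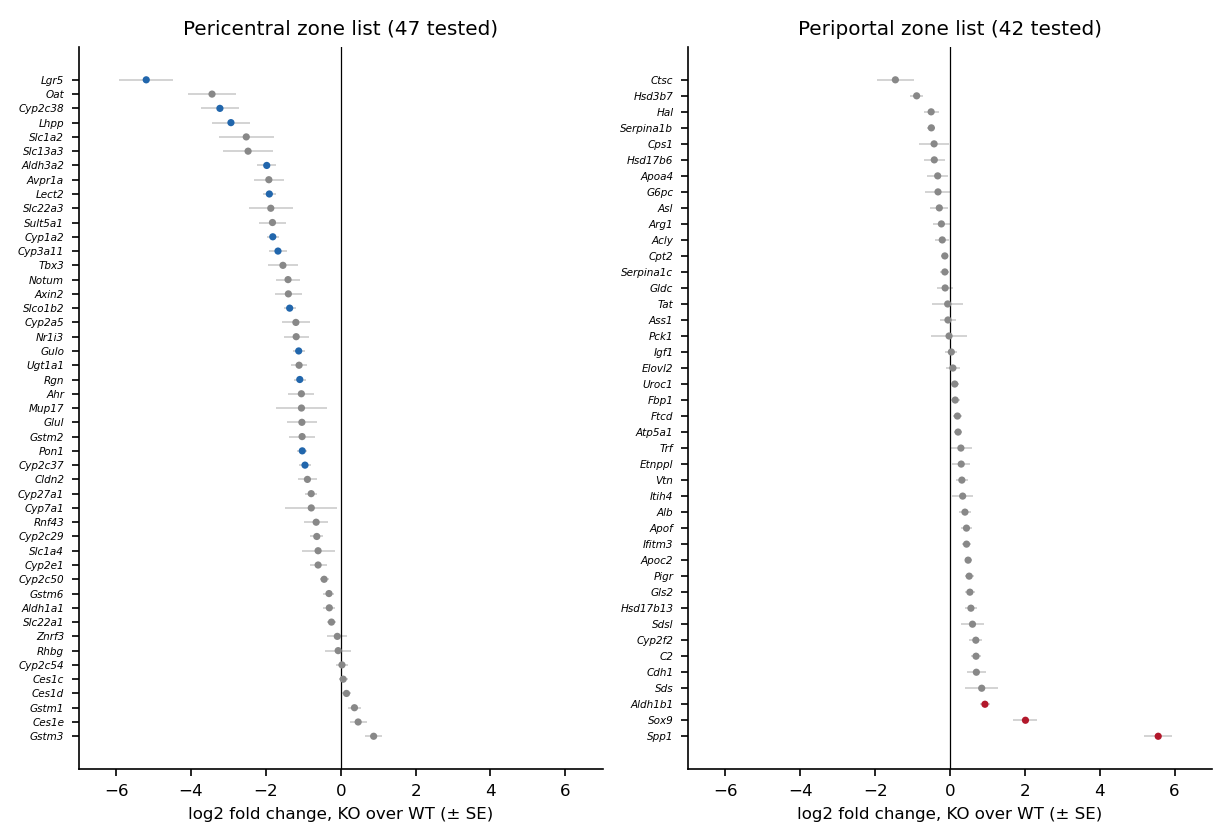
Fitted log2 fold change of KO over WT with its standard error (horizontal) for each gene tested (vertical, ordered by change) of the pericentral list (left) and the periportal list (right), where red is a call up, blue a call down and grey no call. In the pericentral list 41 of 47 genes lie below 0, and in the periportal list 17 of 42 do.

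Other functions had no or few calls. Of 76 ribosomal protein genes none was called, although 73 had a log2 fold change below 0, with a median of −0.13, and the median per library was −0.31, −0.0041 and −0.10 in KO1, KO2 and KO3. None was called among 33 coagulation genes, 32 of the cell cycle, 19 of the circadian clock, 22 of heat shock, 19 of hypoxia, 22 of p53, 9 of the Notch pathway, 31 of TGF-beta and BMP signalling and 22 of the insulin and IGF axis. As 1.71% of all genes were called, lists of this size hold few or no calls at that share. At an unadjusted p under 0.05, 7 coagulation genes rose and 4 fell, and 5 TGF-beta and BMP genes rose and none fell. Over all genes tested 6.78% rose and 7.1% fell at that threshold. Larger shares passed it in lists described in other paragraphs. Of 66 interferon response genes 27 rose and none fell, of 47 NF-kB genes 20 rose and 1 fell, and of 47 pericentral genes 1 rose and 32 fell. Of 41 genes of cholesterol synthesis and uptake 1 fell, and of 34 of the unfolded protein and integrated stress lists 2 rose, Cebpg and Mthfd2. The median log2 ratio of these stress genes was 0.097, 0.79 and 0.021 in KO1, KO2 and KO3. They summed to 4057 to 4718 TPM in WT and 4841, 8087 and 4416 TPM in KO, so that KO2 stood apart. A p above the threshold does not show that the genes not called were equal in both groups. Alb itself read 74170.2, 75823 and 72471 CPM in WT against 102859, 100581 and 90088 CPM in KO (adjusted p = 0.300).

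Single libraries were then compared, because KO3 differed from KO1 and KO2. 217 genes were called only when KO3 was left out, 135 up and 82 down. Genes selected in this way tend to have a KO3 unlike KO1 and KO2. The levels and adjusted p values given for them below therefore describe the selection and are no test of KO3. Among 10015 genes with a mean of at least 2 CPM, KO1 and KO2 were both at least 2-fold above, or both at least 2-fold below, the 3 WT libraries and KO3 in 40 and 19 genes. The like counts were 6 and 13 genes for KO2 and KO3 with KO1 left as the odd library, and 1 and 1 with KO2 as the odd library. The genes of this kind with the lowest adjusted p included the epithelial transcription factor Elf3, at 1.01, 0.602 and 1.16 CPM in WT, 38.8 and 54 CPM in KO1 and KO2 and 3.08 CPM in KO3. Slc10a2, the bile acid carrier of ileum and bile duct, read 30.4, 30.8 and 30.9 CPM in WT, 137 and 99.1 CPM in KO1 and KO2 and 34 CPM in KO3. 3 more genes had the same pattern. Id3, an inhibitor of bHLH factors, read 33.7, 26 and 30 CPM in WT, 69.5 and 92.6 CPM in KO1 and KO2 and 31.6 CPM in KO3. Klf6, a zinc finger factor of injury, read 3.34, 2.58 and 3.17 CPM in WT, 11.3 and 14.4 CPM in KO1 and KO2 and 3.98 CPM in KO3. Fchsd2, an endocytosis adaptor, read 24.7, 25.5 and 25.2 CPM in WT, 54.4 and 72.8 CPM in KO1 and KO2 and 26.4 CPM in KO3. In these 5 genes KO3 was within 3-fold of the highest WT library, a place that their selection favours. Without KO3 their adjusted p values were 0.000702, 0.00338, 0.014, 0.00598 and 0.00977, and with all 6 libraries 0.071, 0.178, 0.227, 0.141 and 0.225.

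Falls of this kind were often graded. Elovl3, an elongase of long-chain fatty acids, read 446, 413 and 352 CPM in WT, 21.6 and 8.84 CPM in KO1 and KO2 and 69.5 CPM in KO3, and Serpina1e, an alpha-1 antitrypsin copy, 6117, 8778 and 7918, 1586 and 1776 and 4109.6 CPM. Hspb1, a small heat shock protein, read 43.7, 43.7 and 29.1 CPM in WT, 6.02 and 6.38 CPM in KO1 and KO2 and 18.9 CPM in KO3. In these 3 genes KO1 and KO2 were both lower than KO3. Hsd3b5, a male-biased ketosteroid reductase, read 109, 131 and 119 CPM in WT, 21.8 and 34.1 CPM in KO1 and KO2 and 71.7 CPM in KO3. Dock8, a guanine nucleotide exchange factor, read 16.8, 22 and 16.8 CPM in WT, 5.39 and 4.73 CPM in KO1 and KO2 and 9.57 CPM in KO3. KO3 was below every WT library in each of these 5, though by less than KO1 and KO2, as the selection of these genes favours. Mup1, a major urinary protein, read 223, 213 and 117 CPM in WT, 7.75 and 9.46 CPM in KO1 and KO2 and 69.2 CPM in KO3. Mup2, its close copy, read 43.3, 53.9 and 31.1 CPM in WT, 2.21 and 4.16 CPM in KO1 and KO2 and 27.6 CPM in KO3. Mcm10, of DNA replication, went the other way in KO3, with 49.1, 51.4 and 60.8 CPM in WT, 23 and 19.5 CPM in KO1 and KO2 and 79.5 CPM in KO3.

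The acute phase list, 37 genes of the inflammatory response of the liver that include secreted proteins, receptors and regulators, summed to 36817, 37478 and 59901 TPM in WT and 74272, 86692 and 33301 TPM in KO, so that KO3 was the lowest library and WT3 the highest WT library. None of 35 tested was called with all 6 libraries (median log2 fold change 0.52), and 7 rose and 1 fell without KO3. KO3 was set apart because it lacks this rise, so counts made without it follow from that choice and lend it no support. The counts of the NF-kB list below carry the same limit. Saa3, a serum amyloid A gene, read 3.07, 2.75 and 19.3 CPM in WT against 222, 446 and 2.87 CPM in KO (adjusted p = 0.253), and Steap4, a metalloreductase, 79.3, 180.1 and 298 and 1584, 3824 and 203 CPM (adjusted p = 0.196). Lcn2, the siderophore binder lipocalin 2, read 15.5, 7.56 and 146 CPM in WT against 219, 214 and 0.821 CPM in KO, and it is the single gene tested of a neutrophil list of 17 of which 7 were at 0 in all 6 libraries. Orm1, an acute phase glycoprotein, did not follow: it read 214, 394 and 519 CPM in WT against 71.6, 34.1 and 3.65 CPM in KO (adjusted p = 0.161), with every KO library below every WT library and KO3 the lowest. In the inflammation and NF-kB list 1 of 47 fell and none rose with all libraries, and 13 rose and 1 fell without KO3. Without KO3 1.71% of all genes tested rose and 1.56% fell. The median log2 ratio of the NF-kB list was 0.61, 1.09 and −0.0013 in KO1, KO2 and KO3. Cxcl2, a neutrophil chemokine, read 0.412, 0.215 and 0.257 CPM in WT against 3.56, 6.22 and 0.452 CPM in KO. Within KO, the libraries high in these genes were also those high in macrophage markers, whose part in these values was not tested.

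**Figure D5:**
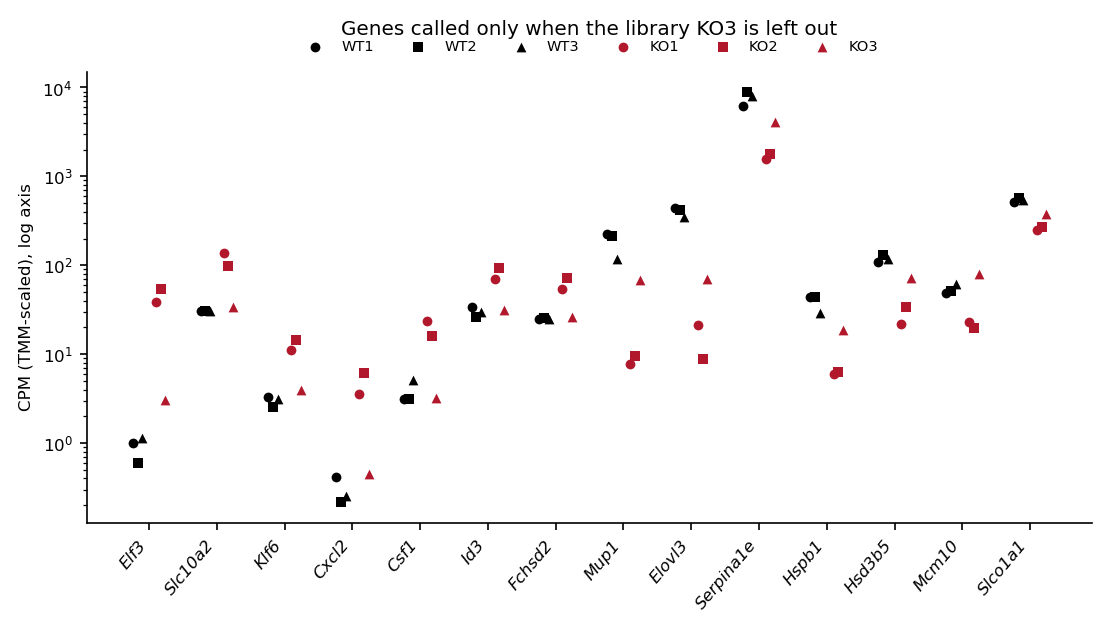
Level of 14 genes called only without KO3 (horizontal) in each library in CPM on a log axis (vertical), where black symbols are WT, red symbols are KO and the shape gives the library number. The red triangles (KO3) lie with or near the black symbols in the first 7 genes, between both groups in Mup1, Elovl3, Serpina1e, Hspb1, Hsd3b5 and Slco1a1, and above both in Mcm10. That KO3 lies apart from KO1 and KO2 is in large part set by how the genes were selected.

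Position in the genome was compared with direction. 39 of the 203 called genes (19.2%) had another called gene within 500 kb, against 15.6% of all genes tested, without a test of this difference. There were 5 runs of 3 or more called genes, and in 4 of them every gene fell. They were the 5 Cyp2c genes on chromosome 19 (39389556 to 40012243), Mup15, Mup19 and Mup3 on chromosome 4 (61435790 to 62087342), Ddt with the glutathione transferases Gstt3 and Gstt1 on chromosome 10 (75771230 to 75798584), and Capn8, Susd4 and Tlr5, which are no family, on chromosome 1 (182565007 to 182976044). In the fifth, on chromosome 12, Ifi27l2b rose and Serpina1d and Gm8893 fell. Neighbours that moved in opposite directions were Cebpg and Cebpa, Ugt1a9 and Ugt1a6b, C4a and Slc44a4 on chromosome 17, and Ifi27l2b and Serpina1d on chromosome 12.

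For the same genes the effect of added Cebpa is given beside the loss, of which it is not the mirror image. Cebpa read 48, 50.6 and 54.3 CPM in GFP and 13292.5, 13652.1 and 14079.1 CPM in OE. In WT, which was scaled separately, it read 309, 229 and 290.3 CPM. The control cultures differed in other genes too, and Cyp1a2 read 6.71, 6.16 and 6.16 CPM in GFP against 654, 463 and 573 CPM in WT. OE and GFP share no library with KO and WT, and in that comparison 86.6% of 14889 genes were called, 43.9% up and 42.7% down, so a call there says little. Of the 82 genes that rose in KO 74 were tested, and 43 fell (58.1%) and 24 rose (32.4%) in OE. Of the 121 that fell in KO 114 were tested, and 54 rose (47.4%) and 47 fell (41.2%). Their median log2 fold changes in OE over GFP were −0.56 and 0.18, against 0.0053 over all genes. Single genes went both ways. In OE over GFP the log2 fold change was 2.84 for Slco1b2, 2.01 for Rgn, 2.40 for Lgr5 and 1.843 for Slc46a3, all of which fell in KO. It was −3.13 for Cyp3a11, −2.81 for Lect2 and −4.58 for Akr1c20, which also fell in KO. Of the rises, Spp1, Tff3 and Ifi27l2b had −2.78, −2.10 and −3.42, and Kcnj8 and Reln had 3.64 and 2.28.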

How the data were processed

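RNA was purified from primary hepatocytes and made into stranded poly(A) libraries. Per the labels, reads were trimmed with Trimmomatic 0.36, aligned to mm10 with STAR 2.5.1, marked with Picard 1.84 and quantified with RSEM 1.2.22, and DESeq2 is named without a version. The authors deposited an expected count and a TPM value per gene and library. The strand setting of the counting is not given in the sources used here, so overlapping genes on opposite strands may share reads.

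Expected counts were rounded to whole numbers. Genes were filtered with filterByExpr (minimum count 10, total 15), scaled by TMM and tested for KO against WT (3 libraries each) with the quasi-likelihood F test of edgeR 4.0.16 in R 4.3.3. P values were adjusted by Benjamini-Hochberg across the whole table, and an adjusted p under 0.05 made a call. OE was tested against GFP in the same way. Alternatives were DESeq2 1.42.0, other scaling and filters, and limma 3.58.1 where the mean reached 1 TPM, on log2(TPM + 1) and with 0.1 as the pseudocount. Further ones fitted the 12 libraries together, added the replicate number as a block, or left out 1 library at a time. A group at 0 was given a bound from 3 counts over the group, and ratios from 1 to 3 counts have exact 95% intervals. Intervals and floors cover counting error only. Depth was 20368564 to 23304230 counts per library in KO and WT.

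The libraries, the 73 gene lists and the tests were chosen with earlier results of these data known. Named were Cebpa, Spp1, Smpdl3b, Sox9, Hes1 and Atf3, then up to 8 called genes with the lowest p per direction in each list or function group, the 3 lowest p of each list, the 15 largest rises and falls, the 20 lowest adjusted p among calls made only without KO3, and the 10 most abundant genes per group. Provisional symbols and pseudogenes were left out. Mup20, Krt7, Krt19, Csf1, Slco1a1, Gm4070, Gm4956 and the genes of chromosome 7 and of ferritin in the closing section were chosen after their values were seen. Sequences come from RefSeq (GRCm38.p6).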

Additional observations from a re-analysis of the deposited data

How the results depend on the processing

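The number of genes called in KO against WT was 203 (82 rises and 121 falls). DESeq2 gave 623 (276 and 347). Fitting the 12 libraries together gave 1205 (587 and 618). The number was 324 without a filter (132 and 192) and 91 with a stricter filter (30 and 61). It reached 112 with limma on log2(TPM + 1) (32 and 80) and 103 on log2(TPM + 0.1) (30 and 73). Size factors of the RLE kind gave 202 calls and library totals 201. With 1 library left out the calls ranged from 42 to 396, the rises from 15 to 207 and the falls from 27 to 189, and the highest values came without KO3. A fit of all 12 libraries takes its spread from the OE and GFP libraries too, and fewer genes are tested under a stricter filter; other causes were not tested. Same-numbered libraries did not deviate together (r = 0.022, −0.048 and −0.417 for WT and KO), and other pairs ranged from −0.31 to 0.30. With 3 libraries per group these values cannot show whether a number marks a shared preparation. The fit with a replicate block gave 87 calls (31 and 56), of which 79 were among the 203. Atf3 had a log2 fold change of 0.027 without KO1 and 0.21 without WT1, against −0.15 with all libraries and −0.34 to 0.21 over the fits with 1 library left out. Of the 203 genes 168 were called in OE against GFP, and between 149 and 170 in its alternatives. Only 74 of the 82 rises and 114 of the 121 falls were tested there. As 86.6% of all 14889 genes were called in OE against GFP, this count says little about the 203. Depth limits genes at a few counts, where a group at or near 0 gives only a bound or a wide interval.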

Other observations

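The light chain of ferritin, the iron store of the cell, showed a split by library that no group shares. Ftl1, on chromosome 7, read 3672, 3576 and 3812 TPM in WT, 2207 and 2213 TPM in KO1 and KO2 and 3889 TPM in KO3. Its copy Ftl1-ps1 on chromosome 13 read 68.6, 63.6 and 67.1 TPM in WT, 987 and 1030.4 TPM in KO1 and KO2 and 77.4 TPM in KO3. Ftl2-ps, a processed pseudogene on chromosome 4, was at 0 in WT1, WT2, WT3 and KO3 and read 918 TPM in KO1 and 919 TPM in KO2. Summed over Ftl1 and its copies the level was 3740, 3640 and 3879 TPM in WT and 4151, 4202 and 3967 TPM in KO. Reads can be shared among these near copies, so the sum is firmer than its parts, and the heavy chain gene Fth1 read 1929 to 2195 TPM in WT and 2039 to 2233 TPM in KO.

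Genes called only when KO3 was left out were then placed on the genome in windows of 10 Mb with at least 20 genes tested. Of 101 genes tested at 40 to 50 Mb on chromosome 7, 8 were of this kind (7.92%, against 1.8% of all genes), the fourth highest share of 212 windows and without a test. The highest was the window of the Mup cluster on chromosome 4 (14.3%). The 8 genes lay 9.48 to 14.6 Mb from Cebpa and went in both directions. They include Ftl1, whose split by library is given above with its copies, and Saa3 of the acute phase list. Myh14, Uevld and the 4 genes that follow are the others. Tead2, a partner of YAP, read 0.046, 0.043 and 0.043 CPM in WT, 1 count in each library, 6.02 and 6.58 CPM in KO1 and KO2 and 0.205 CPM in KO3. Slc6a16, an orphan carrier, read 0.412, 0.731 and 0.385 CPM in WT, 3.18 and 3.03 CPM in KO1 and KO2 and 0.657 CPM in KO3. The provisional gene 0610005C13Rik read 138.5, 119 and 133 CPM in WT, 74 and 69.7 CPM in KO1 and KO2 and 131 CPM in KO3. Htatip2, a reductase-like protein, read 20.3, 17.3 and 19 CPM in WT, 32 and 29.7 CPM in KO1 and KO2 and 21.6 CPM in KO3. In these 4 genes KO1 and KO2 were close to each other and KO3 was near WT, a pattern favoured by their selection as calls made only without KO3. Trpm4, in the same window, was called with all libraries, and its level in KO3 lay between WT and the other KO libraries. The window was chosen after its values were seen.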
